A study of Mus musculus with 6 samples.

Results

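The SR proteins, the hnRNPs and the CLK kinases are the regulators and kinases that set how pre-mRNA is spliced, and their mRNA was compared between follicular B cells with 1 intact allele of Myh9, the gene of the myosin IIa heavy chain, and cells with none. All entries whose gene name began with Srsf or Sfrs and a digit or with Hnrnp, or was Clk1, Clk2, Clk3 or Clk4, were taken. This gave 34 gene names with 54 entries, out of 20458 gene names with 25017 entries in the table. Of the 34, 12 were SR genes with 19 entries, 18 were hnRNP genes with 30 entries and 4 were CLK genes with 5 entries. An entry is a set of transcripts of 1 gene that encode the same protein-coding sequence.

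The cells came from C57BL/6 mice of the genotypes CD23Cre+Myh9wt/fl and CD23Cre+Myh9fl/fl, called wt/fl and fl/fl here, with 3 samples in each group. Follicular B cells were sorted as B220+AA4.1-CD23+CD21lo, and their amplified RNA was sequenced to ask how the loss of myosin IIa alters gene expression in these cells. All 6 samples carry the CD23Cre transgene, in which Cre is driven by the promoter of CD23 (Fcer2a), a gene of mature B cells. Cre removes exon 3 of Myh9 from 1 allele in wt/fl and from both alleles in fl/fl, so the comparison group is haploinsufficient and not wild-type. The labels give no age. The authors' values are FPKM (counts of sequenced fragments corrected for the length of the transcript and the size of the library), so levels can be set side by side between genes. They are pooled, with 1 value per genotype, so no FPKM has an error and none could be held against the spread between mice. The authors' own test results were not used, and no test was made. The depth behind each value is unknown. Where a pair of FPKM values is given, wt/fl comes first, a log2 ratio is that of fl/fl over wt/fl, and positions are those of the table, taken as mm9, unless GRCm38 is named.

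SR proteins bind exonic sequences through RNA recognition motifs and recruit the spliceosome through domains rich in arginine and serine. CLK kinases phosphorylate those domains in the nucleus, which releases SR proteins from speckles and changes which exons are used. The hnRNPs coat nascent RNA, often act against SR proteins at the same exons, and also take part in mRNA export, stability and translation. Many genes of all 3 families splice their own transcripts into forms that do not yield full-length protein, so that the level of coding mRNA is itself regulated by splicing.

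Summed over the entries of each gene, 33 of the 34 genes averaged at least 1 FPKM over both groups, and none of them passed 1.5-fold. Of all 9879 genes compared in the same way, 2.81% were lower in fl/fl past 1.5-fold and 1.74% were higher, and of the 3773 genes that averaged 20 FPKM or more, as all 33 did, 0.848% and 0.265%. Each of these shares, taken in 1 direction alone, comes to fewer than 1 gene in 33. Of the 33 genes, 17 had a log2 ratio of fl/fl over wt/fl below 0 and 16 above 0. Their median log2 ratio was −0.0079 and their range was −0.41 to 0.29. Over all genes the median was 0.0027, with the 5th percentile at −0.43 and the 95th at 0.37, so each of the 33 lay between these percentiles. Highly expressed genes vary less. For the 3773 genes the same percentiles were −0.25 and 0.25, and Clk1, Hnrnph3 and Srsf7 lay under them and Srsf5 and Hnrnpa1 above. All 33 were well expressed, between percentile 62.2 and percentile 98.4 of all genes by mean FPKM. The remaining gene, Srsf12, was at 0.244 FPKM in wt/fl against 0.0796 FPKM in fl/fl and was too low to compare. As the RNA comes from bulk samples, fewer cells of a type and less RNA per cell cannot be told apart.

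**Figure D1:**
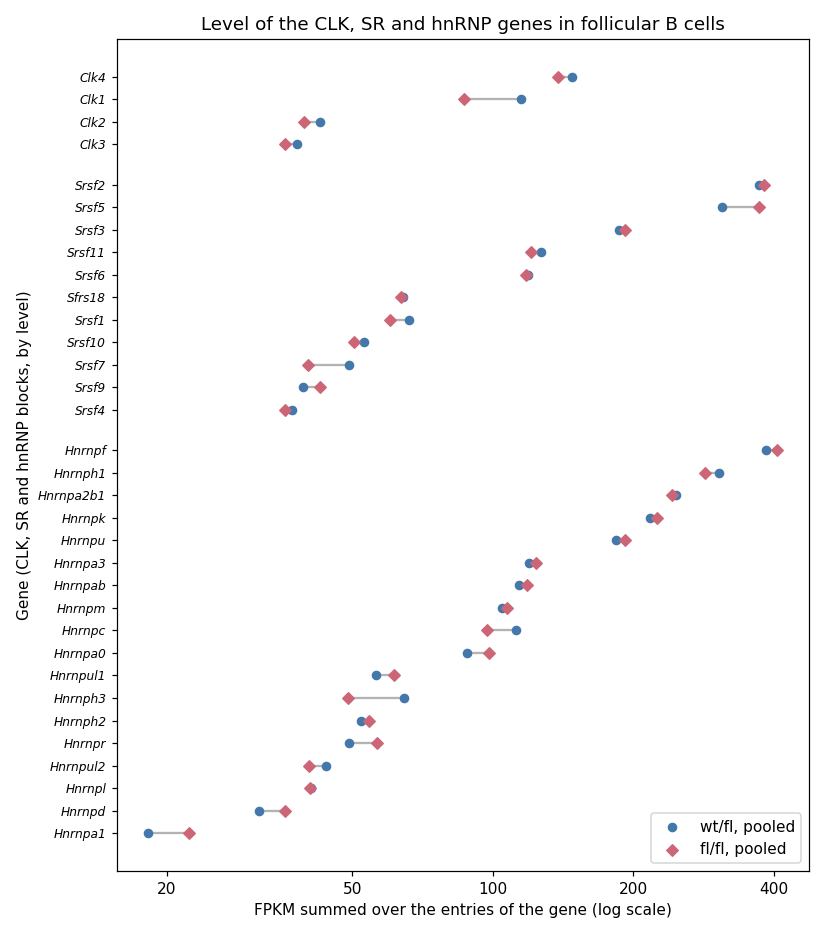
Level of each gene in the wt/fl group (circles) and the fl/fl group (diamonds), as the authors' pooled FPKM summed over the entries of the gene, on a log axis, with the genes of each family ordered by level. A grey line joins the groups, and there is no error bar because the values are pooled. The lines of Clk1, Hnrnph3, Srsf7, Srsf5 and Hnrnpa1 are among the longest, and the levels run from 18.2 FPKM for Hnrnpa1 to 407 FPKM for Hnrnpf.

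At a narrower limit of 1.2-fold, 3 of the 33 genes were lower in fl/fl (Clk1, Hnrnph3 and Srsf7) and 2 were higher (Hnrnpa1 and Srsf5). Srsf7 passed only by an entry of too little signal, without which its log2 ratio was −0.259, inside 1.2-fold. Among all genes 11.1% were lower and 9.64% were higher past 1.2-fold, and among the 3773 genes of 20 FPKM or more 4.11% and 4.69%. The 3 lower genes of 33 thus lay under the share of all genes and above that of genes of their level. This limit and the level of 20 FPKM were added after the values had been seen. The summed mRNA of most of these splicing regulators thus differed little between the genotypes, and the larger differences in summed level lay in these 5 genes. How genes divided into their entries is given further below, beside all genes.

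The CLK genes were the only family of the 3 in which every gene had a log2 ratio below 0. Over all 9879 genes, 4886 lay below 0 and 4993 above, and a common sign of only 4 genes says little. Their summed level was 343 FPKM in wt/fl against 299.8 FPKM in fl/fl, a difference of −12.6%. Clk4 and Clk1, close relatives in sequence, were the most abundant. Clk1 (mm9 chr1:58468831-58480932) stood at 115 FPKM in wt/fl against 86.5 FPKM in fl/fl, which is 75.4% of the wt/fl level and a log2 ratio of −0.41. It had the lowest ratio of the 33 genes, at percentile 5.39 of all genes by log2 ratio. Clk4 was at 148 and 138 FPKM (log2 ratio −0.10), Clk2 at 42.5 and 39.4 FPKM (−0.11), and Clk3 at 37.9 and 35.8 FPKM (−0.08). The 3 kinases other than Clk1 thus differed by less than 10% each, and Clk1 accounted for most of the difference in the family sum.

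CLK1 is known to be sensitive to temperature, being active in cooler cells and less so in warmer ones, and heat shock is known to change the splicing of its own transcript. Genes of the heat shock response were lower in fl/fl. All 11 heat shock genes that averaged 1 FPKM or more, of 13 listed, had a log2 ratio below 0, with a median of −0.88. Of these 11, 8 were lower past 1.5-fold, against 2.81% of all genes. The list was chosen with earlier results of these data known. The summed level of all 13 heat shock genes was 3934 FPKM in wt/fl against 2279 FPKM in fl/fl. Of the genes known to be induced by cold, Cirbp was at 30.5 and 60.7 FPKM and Rbm3 at 325 and 462 FPKM. The part of these differences in the levels of Clk1 or of any other splicing gene was not tested.

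**Figure D2:**
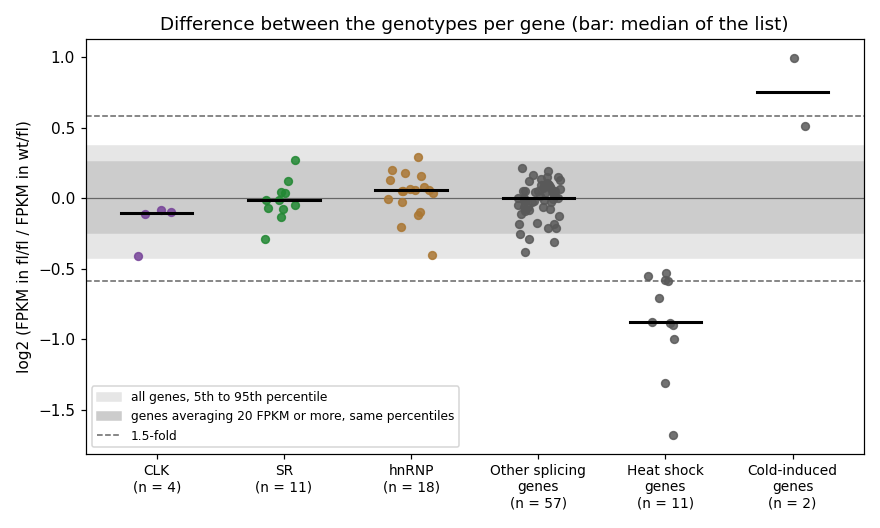
Log2 ratio of fl/fl over wt/fl FPKM for each gene of the CLK, SR and hnRNP families, of the list of other splicing genes and of the heat shock and cold-induced genes, 1 point per gene and a bar at the median of each list. The light band spans the 5th to the 95th percentile of all genes (−0.43 to 0.37), the dark band that of genes averaging 20 FPKM or more (−0.25 to 0.25), and dashed lines mark 1.5-fold. Every splicing gene lies between the dashed lines, while 8 of the 11 heat shock genes and Cirbp lie outside them.

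The 11 SR genes compared had a median log2 ratio of −0.02, with 7 below 0 and 4 above, from −0.29 to 0.27. Their summed level was 1423 FPKM in wt/fl against 1477 FPKM in fl/fl, a difference of 3.82%. Srsf2, which encodes SC35, the protein used to mark nuclear speckles, was the most abundant with 373 FPKM in wt/fl against 381 FPKM in fl/fl (log2 ratio 0.03). Srsf5 came next and differed most upward. Its 309 FPKM in wt/fl against 372 FPKM in fl/fl gave a log2 ratio of 0.27, at percentile 90.6 of all genes. Srsf5 (chr12:82046490-82051494) made up more than the whole of the difference in the SR sum, since the other SR genes together were slightly lower. Srsf3, a small SR protein that shuttles and takes part in mRNA export, was at 187 and 192 FPKM (0.04). Srsf11 was at 127 and 121 FPKM (−0.07) and Srsf6 at 119 and 118 FPKM (−0.01). None of these 5 most abundant SR genes was lower in fl/fl by more than 5%.

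The SR genes of lower level spanned a similar range. Srsf7, another shuttling SR protein, had the lowest ratio of the family with 49.0 FPKM in wt/fl against 40.1 FPKM in fl/fl (log2 ratio −0.29). Srsf1, the much studied splicing factor also called ASF/SF2, was at 66.0 and 60.1 FPKM (−0.13). Srsf9, its close relative, lay on the other side with 39.1 and 42.5 FPKM (0.12). Srsf10, a regulator that is dephosphorylated on heat shock, was at 53.0 and 50.4 FPKM (−0.07), Srsf4 at 37.0 and 35.8 FPKM (−0.05) and Sfrs18 at 64.3 and 63.6 FPKM (−0.02), so these 3 differed by 5% or less. Sfrs18 is the older symbol of Pnisr, an SR-related protein that is not one of the classical SR proteins.

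The 18 hnRNP genes had a median log2 ratio of 0.06, with 6 below 0 and 12 above, from −0.40 to 0.29. Their summed level was 2231 FPKM in wt/fl against 2256 FPKM in fl/fl, a difference of 1.13%. The 5 most abundant, Hnrnpf, Hnrnph1, Hnrnpa2b1, Hnrnpk and Hnrnpu, had log2 ratios between −0.10 and 0.08. Hnrnpf, which binds runs of G near splice sites, was at 384 FPKM in wt/fl against 407 FPKM in fl/fl. Hnrnph1, of the same H/F group, was at 305 and 286 FPKM. Hnrnpa2b1, an A/B protein that also reads RNA marks and sorts RNA for transport, was at 247 and 242 FPKM. Hnrnpk, which binds runs of C through KH domains, was at 217 and 225 FPKM, and Hnrnpu, a nuclear matrix protein also called SAF-A, at 184 and 192 FPKM.

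The hnRNP genes with the lowest and the highest ratios were of moderate or low level. Hnrnph3 (chr10:62442970-62486597), the shortest member of the H/F group, had 64.5 FPKM in wt/fl against 48.8 FPKM in fl/fl, or 75.7% of the wt/fl level (log2 ratio −0.40). Its relatives did not share this difference in size, since Hnrnph2 was at 52.2 and 54.3 FPKM and Hnrnpf and Hnrnph1 differed as given above. Hnrnpc, whose protein binds runs of U and packages nascent RNA, was at 112 and 97.2 FPKM (−0.21). Hnrnpul2 was at 44.0 and 40.4 FPKM (−0.12), whereas Hnrnpul1, its relative, was at 56.2 and 61.3 FPKM (0.13), and Hnrnpl, which binds CA repeats, was at 40.8 and 40.6 FPKM. Above 0 lay Hnrnpa1 with 18.2 and 22.3 FPKM (0.29), Hnrnpr with 49.2 and 56.5 FPKM (0.20), Hnrnpd with 31.5 and 35.7 FPKM (0.18) and Hnrnpa0 with 88.0 and 98.2 FPKM (0.16). Hnrnpa1 has near-identical processed copies elsewhere in the genome, which can split or gain fragments, so its level and ratio are uncertain. The exons of Hnrnpm, Hnrnpk, Hnrnpab and Clk3 overlap exons of a neighbouring coding gene in the GENCODE M21 annotation (March2, Rmi1, Phykpl and Edc3). Rmi1, Phykpl and Edc3 lie on the opposite strand, and whether fragments were counted by strand is not given in the sources used here. March2 lies on the strand of Hnrnpm, where counting by strand could not separate them.

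The entries were then compared one by one. Of the 54 entries, the authors' software marked 52 as tested, and 2 had too little signal, the entry of Srsf12 and an entry of Srsf7 that was at 1.03 FPKM in wt/fl and listed at 0 in fl/fl. Of the 52, 1 was lower in fl/fl past 1.5-fold and 2 were higher, and 27 lay below 0 and 25 above. Of all 11460 entries compared, 6.07% were lower and 4.83% were higher past 1.5-fold, shares that low entries raise. At a mean of 5 FPKM or more, 1 of 50 member entries was lower and 1 was higher, beside 2.11% and 1.47% of all such entries. At 20 FPKM or more, 0 of 37 were lower and 1 was higher, beside 0.973% and 0.514%, so single entries decide whether the members lie above or under the share of all. The 3 entries were the less abundant entry of Clk2, the least abundant of Srsf11 and the least abundant of Hnrnpd. None of these genes passed the limit as a sum.

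For 21 of the 34 genes the table has a single entry, and 13 have at least 2 tested entries whose ratios can be set against each other. In 9 of the 13 the entries had ratios of opposite sign, 69.2%, against 72.4% of the 1290 genes of the table with at least 2 tested entries. Entries were called apart where the signs were opposite and the log2 ratios lay at least 1 from each other. This held for 1 of the 13, Srsf11, and for 32.8% of the 1290 genes. The median distance between the lowest and the highest ratio was 0.54 for the 13 and 0.69 for the 1290. These figures over all genes depend on level, since entries lie apart mostly where 1 of them is low. For the 7 members whose least abundant tested entry averaged 5 to 20 FPKM the median distance was 0.54 against 0.45 for all genes of that class, and 0 of 7 were apart against 17.4%. For the 4 members at 20 FPKM or more it was 0.40 against 0.23, and 1 of 4 was apart against 2.67%. The remaining pair of members lay in the lower classes. With so few genes in each class, no order between the members and other genes was read from these values.

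**Figure D3:**
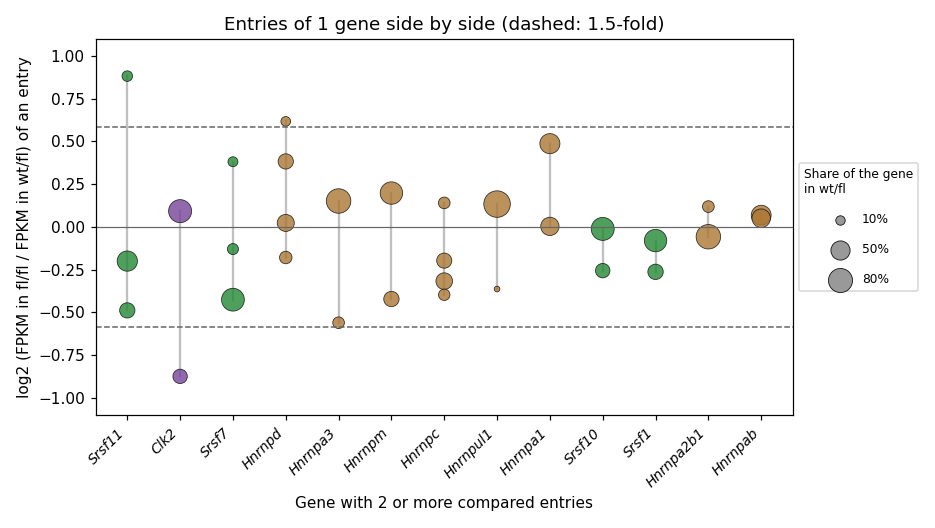
Log2 ratio of fl/fl over wt/fl for each tested entry of the 13 genes with at least 2 of them, ordered by the distance between the lowest and the highest entry, with the area of a point following the share of the entry in the FPKM of its gene in wt/fl. Dashed lines mark 1.5-fold. The 3 entries past them belong to Srsf11 (0.88), Clk2 (−0.87) and Hnrnpd (0.62), and each is the smallest point of its gene.

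Srsf11 encodes a nuclear protein with an arginine and serine rich domain (p54) that interacts with U2AF. Its 3 entries share the locus chr3:157673456-157699603 (mm9). The most abundant entry was at 71.0 FPKM in wt/fl against 61.9 FPKM in fl/fl (log2 ratio −0.20), and the next at 39.0 and 27.8 FPKM (−0.49). The third was at 16.9 FPKM in wt/fl against 31.1 FPKM in fl/fl, a log2 ratio of 0.88, so that the order of the second and the third entry was not the same in the 2 groups. The share of the third entry in the FPKM of the gene was 13.3% in wt/fl and 25.8% in fl/fl, while the summed level differed by less than 5%. Of genes whose least abundant tested entry averaged under 1 FPKM 75.0% had entries apart, whereas of the 75 genes with all tested entries at 20 FPKM or more 2.67% did, which is 2 genes, Srsf11 among them. These level classes were set after the values had been seen.

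In GENCODE M21 on GRCm38, the coding sequences of Srsf11 that are linked to RefSeq number 2, of 1431 and 1536 bases, and the table does not say which entry holds which. They differ at their 5′ end, where the longer one starts in an upstream exon at chr3:158036516-158036605 on the minus strand and takes in 15 further bases at chr3:158031634-158031648. Both stretches are shown, with the start codon in capitals, because they are what sets the annotated coding sequences of this gene apart.
Srsf11 upstream coding exon, 90 bases: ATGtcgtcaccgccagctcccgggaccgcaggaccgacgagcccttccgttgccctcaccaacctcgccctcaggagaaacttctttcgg
Srsf11 further coding bases, 15 bases: gaggcagcccgcgcc
RefSeq (GRCm38.p6) gives each start a promoter of its own, which is shown from 250 bases before to 50 bases after the start, with GC boxes (GGGCGG on either strand) in capitals. The upstream one is chr3:158036557-158036856 and the downstream one chr3:158031699-158031998, both on the minus strand.
Srsf11 upstream promoter: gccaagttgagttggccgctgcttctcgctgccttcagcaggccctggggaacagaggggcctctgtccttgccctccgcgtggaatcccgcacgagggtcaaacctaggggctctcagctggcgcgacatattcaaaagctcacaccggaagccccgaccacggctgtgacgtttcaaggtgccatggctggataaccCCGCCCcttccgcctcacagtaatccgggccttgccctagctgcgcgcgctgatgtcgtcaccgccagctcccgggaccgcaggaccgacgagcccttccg
Srsf11 downstream promoter: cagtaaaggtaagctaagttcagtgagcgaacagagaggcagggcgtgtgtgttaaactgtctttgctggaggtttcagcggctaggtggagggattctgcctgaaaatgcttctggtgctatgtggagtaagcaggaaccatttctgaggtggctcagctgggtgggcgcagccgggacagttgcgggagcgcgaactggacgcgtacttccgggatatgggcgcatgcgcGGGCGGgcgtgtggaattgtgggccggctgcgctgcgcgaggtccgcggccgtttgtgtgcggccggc
Each window holds 1 GC box and 25 CpG, and the end of the upstream window runs into the coding exon above. The table does not say from which promoter the transcripts of an entry start.

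Clk2 (chr3:88968726-88981009 in mm9) had the next largest distance, 0.97, which fell short of the limit of 1. Its main entry was at 31.0 FPKM in wt/fl against 33.1 FPKM in fl/fl (log2 ratio 0.09), and the other at 11.5 and 6.27 FPKM (−0.87). The lesser entry thus held 27.0% of the gene's FPKM in wt/fl against 15.9% in fl/fl. The 2 annotated coding sequences, of 1497 and 1500 bases, differ by a single codon of 3 bases (cag) at chr3:89168695-89168697 in GRCm38. Whether the 2 entries are these forms is not known. If they differ by this codon alone, few fragments can tell them apart, and the authors' software would assign the rest by estimate.

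Hnrnpd encodes AUF1, which binds AU-rich elements and controls mRNA decay. Its 4 entries (chr5:100384954-100407957) were at 12.3 and 12.5 FPKM (log2 ratio 0.02), 9.65 and 12.6 FPKM (0.38), 6.22 and 5.49 FPKM (−0.18) and 3.40 and 5.21 FPKM (0.62). The first and the second entry, which differed in wt/fl, were nearly equal in fl/fl. Shares moved by less than 5 percentage points each. The 4 annotated coding sequences, of 864 to 1068 bases, are the 4 combinations of a pair of stretches, one of 57 bases near the 5′ end at chr5:99976534-99976590 and one of 147 bases near the 3′ end at chr5:99963731-99963877, on the minus strand of GRCm38. They are printed because they alone define the forms.
Hnrnpd 57-base stretch: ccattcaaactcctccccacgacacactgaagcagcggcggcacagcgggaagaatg
Hnrnpd 147-base stretch: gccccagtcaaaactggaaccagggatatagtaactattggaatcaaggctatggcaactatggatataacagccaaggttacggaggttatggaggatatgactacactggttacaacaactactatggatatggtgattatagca

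Srsf7, with a distance of 0.81, had a main entry at 35.1 FPKM in wt/fl against 26.1 FPKM in fl/fl (log2 ratio −0.43). Its other tested entries were at 7.27 and 6.64 FPKM (−0.13) and at 5.64 and 7.34 FPKM (0.38). The lower sum of the gene in fl/fl was thus that of its main entry, whose share was 71.6% in wt/fl and 65.1% in fl/fl. The annotated coding sequences number 3, fewer than the 4 entries.

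In Hnrnpa3 and Hnrnpm the major and the minor entry lay on opposite sides of 0. Hnrnpa3, an A/B protein, was at 99.3 and 110.3 FPKM in its main entry (log2 ratio 0.15) and at 20.1 and 13.6 FPKM in the other (−0.56), just inside 1.5-fold. Hnrnpm, a protein with a long stretch of methionine and arginine repeats, was at 72.3 and 83.0 FPKM (0.20) and at 32.3 and 24.1 FPKM (−0.42). In both genes the summed level differed by less than 4%. Each has 2 annotated coding sequences that differ by 1 stretch, present in the longer form, and these are given to show how alike the forms are otherwise. The Hnrnpa3 stretch lies at chr2:75659324-75659389 on the plus strand and the Hnrnpm stretch at chr17:33666530-33666646 on the minus strand of GRCm38.
Hnrnpa3 66-base stretch: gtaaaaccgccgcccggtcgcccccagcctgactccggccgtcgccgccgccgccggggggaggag
Hnrnpm 117-base stretch: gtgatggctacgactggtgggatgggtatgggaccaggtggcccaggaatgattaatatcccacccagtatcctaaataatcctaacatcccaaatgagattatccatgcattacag

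The remaining 7 genes with several entries showed smaller distances. The 4 entries of Hnrnpc were at 41.4 and 33.2, 33.8 and 29.5, 18.9 and 20.8, and 18.1 and 13.7 FPKM, so 3 were lower in fl/fl and 1 was higher. Of the entries of Hnrnpa1, one had a log2 ratio of 0.49 and reached 14.0 FPKM in fl/fl, and the other was at 8.24 and 8.26 FPKM. For Hnrnpa2b1 the entries were at 204 and 197 FPKM and at 42.3 and 45.9 FPKM. The entries of Hnrnpab, the closest pair, had log2 ratios of 0.07 and 0.05. In Srsf1 and Srsf10 both entries were lower in fl/fl, and the minor one by more, with log2 ratios of −0.26 in each gene. The second entry of Hnrnpul1 was at 1.12 and 0.867 FPKM, under 2% of the gene.

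In shares of the gene, an entry moved by at least 10 percentage points in 2 of the 13 genes, Srsf11 (12.5 points) and Clk2 (11.1 points), against 33.7% of the 1290 genes. Among the 661 genes of the 1290 that averaged 20 FPKM or more, all 13 included, the share was 19.4%. The median of the largest shift per gene was 4.59 points for the 13 and 4.59 points for those 661 genes. This measure and its limits were added after the entries had been seen.

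**Figure D4:**
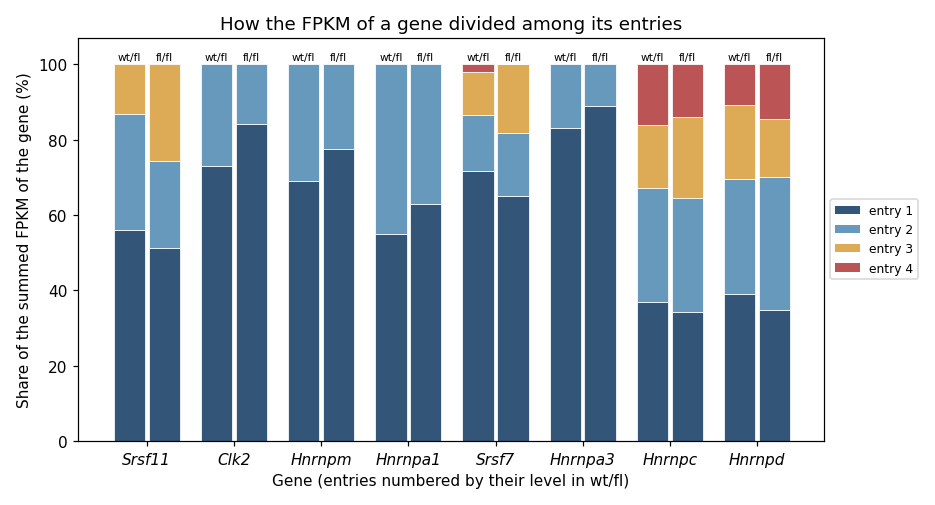
Share of each entry in the summed FPKM of its gene, in percent, in the wt/fl group (left bar) and the fl/fl group (right bar) for 8 genes, with entries numbered by their level in wt/fl. In Srsf11 the third entry takes 13.3% in wt/fl against 25.8% in fl/fl, in Clk2 the first takes 73.0% and 84.1%, and in the other genes shown no share differs by 10 points or more.

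The number of entries equalled the number of RefSeq-linked coding sequences in GENCODE M21 for 26 of the 34 genes, was lower for 6 and higher for 2 (Srsf11 and Srsf7). Every entry groups transcripts with a coding sequence. Transcripts without one, such as some with retained introns or with poison exons, by which CLK and SR genes limit their own level, form no entry in a table of this kind, and their levels are not analysed here. RefSeq promoters were found for 31 of the 34 genes (43 promoters), with a median GC content of 67.3% against 52.7% over 32841 mouse promoters and a median of 30 CpG against 7. Their composition varied widely, from 48.3% GC (Hnrnpa1) to 79.7% GC (Hnrnpa0) and from 7 CpG (a promoter of Hnrnpf) to 52 CpG (Hnrnpa0). A GC box was present in 36 of the 43 (83.7%) against 35.7% of all. The core of the heat shock element, searched as GAANNTTC, was present in 5 (11.6%) against 7.86%, and in its other phase, TTCNNGAA, in 2 (4.65%) against 8.52%. Windows of 1 gene can overlap and hold the same site, as those of Hnrnpa2b1 do, so the 5 windows belong to 4 genes and the 2 to 1 gene. TATAAA was present in 4 (9.30%) against 13.6%. Both strands were searched, and a match is a description of the letters only. High GC and CpG content is common to promoters of genes that most cells express.

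Other genes of splicing were compared by the same rule from a list of 60 genes, which held spliceosome subunits, kinases and transporters of SR proteins, further RNA-binding proteins and factors of nonsense-mediated decay. Of 57 that averaged 1 FPKM or more, 0 passed 1.5-fold, 27 lay below 0 and 30 above, and their median log2 ratio was 0.0034. Their range, from −0.38 for Luc7l (33.1 and 25.5 FPKM), a U1-associated protein, to 0.21 for Srpk3 (74.2 and 85.8 FPKM), was about that of the CLK, SR and hnRNP genes. Srpk3 is one of the SRPK kinases, which phosphorylate SR proteins in the cytoplasm before they are imported. Srpk1 was at 32.8 and 36.8 FPKM and Srpk2 at 21.9 and 19.4 FPKM, so these kinases lay on both sides of 0. The SR-like regulators Tra2a and Tra2b were at 107.9 and 90.3 FPKM (log2 ratio −0.26) and at 89.99 and 79.2 FPKM (−0.18). The most abundant genes with a ratio below 0 were Srrm2, a scaffold of nuclear speckles (217 and 215 FPKM), and Ptbp3, a repressor of exons with pyrimidine tracts (148.0 and 147.6 FPKM). The most abundant above 0 were Rbm39 (219.8 and 220.1 FPKM) and Mbnl1 (198 and 205 FPKM), also splicing factors. Hnrpdl, a relative of Hnrnpd under an older symbol that the rule on names does not take, was at 105 and 117 FPKM.

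The deleted gene and the purity of the cells were checked in the same table. Myh9 was at 50.6 FPKM in wt/fl against 21.1 FPKM in fl/fl, 41.7% of the wt/fl level. This FPKM covers the gene as 1 entry, while Cre removes exon 3 alone. The value therefore does not measure how much intact Myh9 mRNA was left. The 8 B cell markers summed to 5031 FPKM in wt/fl against 5324 FPKM in fl/fl, and 0 of them passed 1.5-fold. Neutrophil markers were lower in fl/fl, with 7 of 7 compared genes past 1.5-fold and a sum of 377 and 66.5 FPKM, of which Elane and Mpo were near 0 in wt/fl and listed at 0 in fl/fl. The erythroid markers listed summed to 55.2 and 7.52 FPKM, macrophage and monocyte markers to 83.1 and 53.5 FPKM and T cell markers to 22.8 and 21.4 FPKM. Plasma cell markers summed to 57.6 and 48.5 FPKM, most of it Xbp1 (48.8 and 45.9 FPKM), which B cells also express. Of the 3 compared, 2 were lower past 1.5-fold, Igj (5.40 and 0.617 FPKM) and Sdc1 (2.30 and 1.13 FPKM). Sums over lists of different genes do not measure the share of cells of a type. The part of these marker differences in the levels of Clk1, Hnrnph3 or any other gene above was not tested.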

How the data were processed

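RNA of 6 samples of sorted follicular B cells was measured, 3 wt/fl and 3 fl/fl, grouped by the genotype in the labels. RNA was extracted with TriZol and RNeasy, amplified with Ovation RNA-Seq System V2 and made into libraries with TruSeq Nano DNA. The submitters' processing notes name Bowtie, TopHat and Cufflinks and the builds mm10 and GRCm38, without versions. The authors deposited 1 table in Cuffdiff layout, with 1 FPKM per genotype pooled over its 3 samples and normalized to transcript length and mapped fragments. How fragments were filtered and counted by strand is not given in the sources used here. The table's positions are not those of GRCm38, since 0 of 33 member genes found in RefSeq overlap their position there. They were taken as mm9, whose style of names for unplaced sequences the table uses, but were not checked against an mm9 annotation and were not converted. The table's own fold changes, test statistics, p-values and q-values are the authors' comparison and were not used.

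Log2 ratios were computed as fl/fl over wt/fl without a pseudocount, for entries with status OK and both FPKM above 0, and for genes after summing FPKM over all their entries, where the mean was at least 1 FPKM. As pooled values leave no replicate error, differences past 1.5-fold (0.585 on the log2 scale) were counted without a test, beside the share of all entries or genes past it. Named were the CLK genes, the 5 most abundant SR and hnRNP genes, genes or entries past 1.5-fold, genes with entries apart, and of the other splicing genes those past 1.5-fold and the most abundant on each side. Further genes were named after their values were seen. The members and all gene lists, heat shock genes and markers included, were chosen with earlier results of these data known. Alternatives were pseudocounts, filters, folds, distances, scaling and centring. Coding sequences came from GENCODE M21 and promoters from RefSeq. Python 3.11.15 with pandas 2.3.3, NumPy 2.4.6 and matplotlib 3.10.9 was used, and the counts were tested on simulated data.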

Additional observations from a re-analysis of the deposited data

How the results depend on the processing

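With 1 pooled value per genotype, no replicate could be left out, and no test or interval could be had from the FPKM. The authors' own test results were not used. No paired analysis was possible because the samples of a genotype were pooled by the authors. Depth is unknown, so the precision of low entries is too. Of the recomputed summary values, 56 kept their value within the limits set (counts within 1.5 times, medians within 0.1 on the log2 scale). The other 17 moved, while all 63 recomputed ratios of named genes stayed within 0.1. Several settings could hardly change a value, so these tallies do not measure stability. The factor of the upper quartile scaling was 1.0015. Every member gene compared averaged 20 FPKM or more, so a pseudocount of 1 FPKM or a filter at 5 FPKM acted little on gene ratios. Counts of 52 or fewer members are small, so single entries decide them. The 2 entries higher past 1.5-fold became 1 with a pseudocount of 1 FPKM, 1 for means from 5 FPKM, 1 for means from 20 FPKM, 0 at 2-fold and 6 at 1.2-fold. The 1 lower entry became 2 when entries of any status were counted, 0 at 2-fold, 10 at 1.2-fold and 0 for means from 20 FPKM. Of all entries, 16.2% were lower and 14.0% higher past 1.2-fold, and 2.83% and 2.02% past 2-fold. With any status, 14.2% of all entries were lower past 1.5-fold, and with a pseudocount of 1 FPKM 3.12% were higher. The member counts at 1.2-fold thus lay near the shares of all entries. The 0 genes lower past 1.5-fold became 1 without the filter on low values, which lets in Srsf12, beside 10.7% of all genes. They became 3 at 1.2-fold, beside 11.1%. Srsf7, 1 of these 3, passed 1.2-fold only with its entry of too little signal. The 0 higher genes became 2 at 1.2-fold, beside 9.64% of all genes. The 0 other splicing genes that were lower became 3 of 57 at 1.2-fold, beside 11.1%. Genes with entries apart numbered 7 of 13 at a distance of 0.5 and 0 at a distance of 2, in place of 1. Of all 1290 genes with at least 2 tested entries, 53.6% were apart at 0.5 and 14.4% at 2, so the 7 lay near the share of all genes. Genes with a moved share numbered 6 at 5 points and 0 at 20 points, in place of 2, and no share of all genes is given for these limits. The settings of 1.2-fold, 20 FPKM, 5 points and 20 points were chosen after seeing the data.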
